A study of Mus musculus with 12 samples.

Results

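Collagen chains, laminin chains and integrin subunits were followed across 4 sorted cell fractions of the mouse embryo at embryonic day 7.5. The genes were taken by name from the scanner files, as every name of the form Col, Lama, Lamb, Lamc, Itga or Itgb with its chain number or letter, a rule that uses no measured value. This gave 78 of 27549 gene names on the array: 40 collagen chains, 10 laminin chains, 25 integrin subunits (17 alpha and 8 beta) and 3 names that fit the pattern but were kept apart. The last are Itgbl1, an integrin-like secreted protein, Itgb4bp, an old name of the ribosome factor Eif6, and Itgb2l, an Itgb2-like gene. The laminin beta-1 chain carries another form of name in the files (Lamb1-1) and is therefore not among the 10.

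Cells of whole CD-1 embryos, pooled from about 300 embryos of 25 litters, were stained with antibodies against Endoglin (Eng), a co-receptor for TGF-beta family ligands, and Flk1 (gene Kdr), a receptor for vascular endothelial growth factor. The fractions carried neither protein (Eng-Flk1-), Flk1 alone (Eng-Flk1+), both (Eng+Flk1+) or Endoglin alone (Eng+Flk1-). All were wild-type cells without treatment as far as the labels say, each sample held 3000 cells, and each fraction was measured on 3 one-colour arrays after PCR amplification of its cDNA. All samples come from 1 pool, so a p-value here sets a difference against the scatter of sorted aliquots, part of which may be technical, and says nothing of the scatter between embryos.

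Collagen chains assemble in threes into triple helices, and laminins are cross-shaped trimers of an alpha, a beta and a gamma chain. Laminins and type IV collagen are the networks of the basement membrane, the sheet under epithelia and around vessels, which exists in the embryo from the blastocyst on and is crossed by cells leaving the primitive streak. Integrins are receptors of an alpha and a beta subunit that bind these proteins, fibronectin or other cells, and the alpha subunit largely sets the ligand.

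Levels are given as the log2 signal of a probe minus the 75th percentile of its array, so that 0 is the level of a probe brighter than 75% of probes, and a difference of 1 on this scale is a 2-fold difference in signal. Levels of different genes come from different probes and are not set against each other. Between 66.5% and 76.3% of spots were well above background on the Eng-Flk1- arrays and 80.2% to 83.3% elsewhere. The median SD over the members tested was 0.809 in Eng-Flk1- and 0.468 to 0.580 in the other fractions, so comparisons with Eng-Flk1- rest on noisier values. The Kdr transcript followed the sort, with mean levels of 1.11 ± 0.764 in Eng-Flk1+ and 1.64 ± 0.183 in Eng+Flk1+, while the fractions without Flk1 protein had -6.20 ± 1.56 (Eng-Flk1-) and -5.38 ± 1.87 (Eng+Flk1-, all SD, n = 3). The Eng transcript did not pass the test in any comparison, and its mean was 2.10 ± 0.929 in Eng+Flk1+ but 0.479 ± 0.552 in Eng+Flk1-, against 0.489 ± 1.02 in Eng-Flk1+.

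Most of the matrix and receptor genes gave a measurable signal in every fraction. Of the 75 collagen, laminin and integrin genes, 61 were well above background on all 12 arrays: 33 of 40 collagens, 7 of 10 laminins and 21 of 25 integrins. The other 14 fell short of this on some arrays, and 4 of them (Col12a1, Col19a1, Itga11 and Itgb6) were not well above background on all 3 arrays of any fraction and were not tested. This leaves 71 tested genes, 38 collagens, 10 laminins and 23 integrins, in a table of 22720.

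Few of these genes separated the fractions beyond the spread between arrays. In limma with Benjamini-Hochberg adjustment over all 22720 genes, 3 genes passed an adjusted p under 0.05 in 1 comparison each, all of them higher than in Eng-Flk1-. The transmembrane collagen Col13a1 was higher in Eng-Flk1+, the laminin gamma-1 chain Lamc1 in Eng+Flk1-, and the type IV collagen chain Col4a1 in Eng+Flk1+. All 3 calls are of matrix chains, and no integrin subunit passed in any comparison on the probe used, the brightest of its gene. Dimmer probes of Itga3, of Itgav and of some matrix chains did pass when every probe was tested on its own, as given below.

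The counts are read against the share of all genes called in the same comparison. Between Eng-Flk1+ and Eng-Flk1-, 1 of 71 (1.41%) was called, where 1.91% of all genes were. Between Eng+Flk1- and Eng-Flk1- it was again 1, against 1.46% of all genes, and between Eng+Flk1+ and Eng-Flk1- 1, against 2.36%. No member was called between Eng+Flk1+ and Eng+Flk1- (0.295% of all genes), between Eng+Flk1+ and Eng-Flk1+ (0.0264%), between Eng-Flk1+ and Eng+Flk1- (0.101%) or for the interaction, which asks whether the difference with Flk1 is the same among Endoglin positive and Endoglin negative cells (0.273%). At an unadjusted limma p under 0.05 the counts in those 4 were 11, 4, 10 and 6 of 71, beside 6.60%, 4.78%, 5.37% and 10.53% of all genes. Against Eng-Flk1-, the unadjusted counts were 11 higher and 5 lower in Eng-Flk1+ (17.7% of all genes), 9 and 3 in Eng+Flk1- (14.4%) and 12 and 2 in Eng+Flk1+ (15.5%). At the adjusted threshold no share of called members lay above that over all genes. At the unadjusted one the members' share was above it in every comparison of fractions and below it for the interaction. Neither difference in shares was tested.

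A coarser reading counts the genes whose 3 arrays of one fraction all lay above the 3 of the other. This held for 22 of 71 members between Eng-Flk1+ and Eng-Flk1- (31.0%, against 22.1% of all genes tested), with 10 higher and 12 lower in Eng-Flk1+. It held for 17 between Eng+Flk1+ and Eng+Flk1- (23.9% against 15.2%) and for 18 between Eng+Flk1+ and Eng-Flk1- (25.4% against 18.1%). The other 3 counts were 14 between Eng+Flk1- and Eng-Flk1- (19.7% against 19.0%), 14 between Eng+Flk1+ and Eng-Flk1+ (19.7% against 13.8%) and 12 between Eng-Flk1+ and Eng+Flk1- (16.9% against 15.7%). The excess over the background was not tested, and several comparisons share arrays.

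**Figure D1:**
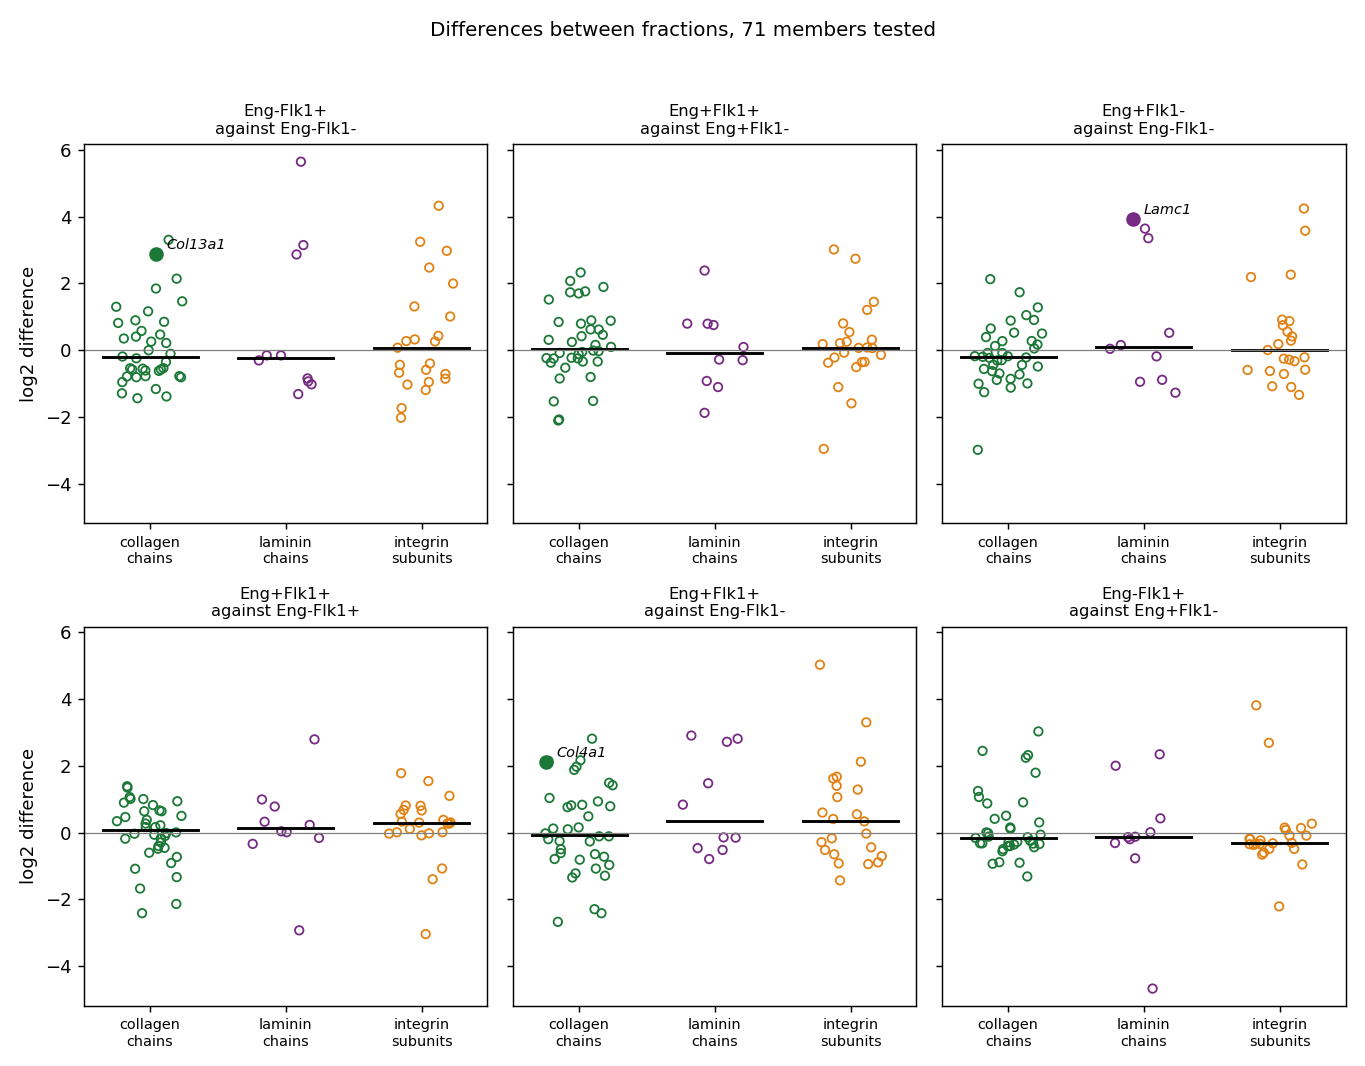
Log2 difference between fractions for the 71 tested genes, by class, in each of 6 comparisons. Open circles did not pass the test, filled circles did (adjusted p under 0.05 in limma), and bars mark the class medians, which lie between -0.31 and 0.35 while single genes range from -4.67 to 5.65.

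Type IV collagen, the main collagen of basement membranes, has 6 chains encoded in 3 head-to-head gene pairs, and the pair Col4a1 and Col4a2 makes its most widespread form. The probe of Col4a1 lies on chromosome 8 at 11199818-11201652 (mm8, minus strand). Its levels were 0.63, -0.11 and 1.15 for Eng-Flk1-, then 1.90, 1.77 and 1.90 for Eng-Flk1+, 2.10, 2.61 and 3.34 for Eng+Flk1+ and lastly 1.50, 0.68 and 0.65 for Eng+Flk1-. All 6 arrays with Flk1 lay above all 6 without, and within the Flk1 positive cells the 3 arrays with Endoglin lay above the 3 without. Against Eng-Flk1-, Col4a1 was higher in Eng+Flk1+ by 2.13 ± 0.48, adjusted p = 0.0491 (log2, SE), just past the threshold. The corresponding values were 1.30 ± 0.48, adjusted p = 0.21 for Eng-Flk1+ against Eng-Flk1- and 1.73 ± 0.48, adjusted p = 0.278 for Eng+Flk1+ against Eng+Flk1-, neither of them called.

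Col4a2, the partner chain, had levels of -0.07, 1.99 and 0.54 for Eng-Flk1-, then 2.06, 1.71 and 3.08 for Eng-Flk1+, 4.13, 3.17 and 3.60 for Eng+Flk1+ and lastly 3.10, 2.44 and 0.06 for Eng+Flk1-. Its 3 Eng+Flk1+ arrays were the highest of all 12, and the Eng+Flk1- arrays were spread over 3 log2 units. The difference between Eng+Flk1+ and Eng-Flk1- was 2.81 ± 0.81, adjusted p = 0.121. A second Col4a2 probe, well above background on all 12 arrays, also had its highest mean in Eng+Flk1+ (3.07), but this difference was 0.96. Between Eng-Flk1+ and Eng-Flk1- the second probe gave -0.65, where the probe used gave 1.46. In RefSeq (GRCm38.p6) the genes lie head to head on chromosome 8 and overlap at their starts, Col4a1 at 11198423-11312889 on the minus strand and Col4a2 at 11312805-11449287 on the plus strand. The 22 bases from the Col4a2 start to the Col4a1 start of the promoter table are chr8:11312805-11312826. They are shown because both chains had their highest mean in Eng+Flk1+ on the probes used and share this start region. They are read on the plus strand, the strand of Col4a2, with Col4a1 running in the opposite direction, so both transcripts cover them. No motif search was run on them, and all letters are in lower case. They do hold the letters gggcgg, those of the GC box that is counted below in windows before a start.

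Col4a2 to Col4a1 starts: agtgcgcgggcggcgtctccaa

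The rarer chains did not follow this pattern as a group. Col4a5 was dim in both fractions without Flk1 (means of -5.11 ± 0.151 and -5.29 ± 0.808, SD) and less so in Eng-Flk1+ (-2.97 ± 0.699) and Eng+Flk1+ (-2.96 ± 2.33), where its arrays ranged from -5.29 to -0.62. Col4a4, which pairs with Col4a3, had levels of 2.10, 0.01 and 0.28 in Eng-Flk1- and -0.91, -0.40 and -0.62 in Eng-Flk1+, a difference of -1.44 ± 0.55, adjusted p = 0.219. Its difference with Flk1 was 0.62 ± 0.55 among Endoglin positive cells, and the interaction was 2.06 ± 0.77, adjusted p = 0.387. Col4a3 lay lower in Eng+Flk1+ (-3.48, -2.34 and -2.87) than in Eng-Flk1- (-2.14, -2.31 and -0.37), and Col4a6 lower in Eng+Flk1+ (-0.84, -1.10 and -0.75) than in Eng+Flk1- (-0.48, -0.62 and -0.57), both narrowly and without a call. A dimmer probe of Col4a3, well above background on 10 arrays, went the opposite way between Eng+Flk1+ and Eng-Flk1-, with a called difference of 4.71 ± 0.97 (limma adjusted p = 0.0286 when every probe is tested on its own). Between Eng+Flk1+ and Eng+Flk1-, 4 of the 6 chains had positive differences, with a median of 1.18 against -0.01 over all genes, and none passed the test.

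Col13a1 and Col23a1 encode transmembrane collagens, single-pass proteins whose triple-helical part stands outside the cell. Levels of Col13a1, whose probe lies on chromosome 10 at 61262825-61263194 (mm8, minus strand), were -2.08, -0.51 and -1.55 for Eng-Flk1-, then 1.29, 1.78 and 1.48 for Eng-Flk1+, 1.50, 0.20 and 0.66 for Eng+Flk1+ and lastly -0.36, -0.90 and -0.93 for Eng+Flk1-. The arrays of both Flk1 positive fractions lay above all arrays of both fractions without Flk1. Against Eng-Flk1-, Col13a1 was higher in Eng-Flk1+ by 2.89 ± 0.51, adjusted p = 0.0186. The differences of 2.17 ± 0.51, adjusted p = 0.0571 for Eng+Flk1+ against Eng-Flk1-, 2.24 ± 0.51, adjusted p = 0.196 for Eng-Flk1+ against Eng+Flk1- and 1.52 ± 0.51, adjusted p = 0.487 for Eng+Flk1+ against Eng+Flk1- were not called.

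Col23a1 was highest in Eng-Flk1+. Its levels were -1.67, -0.60 and -1.23 for Eng-Flk1-, then 0.15, 0.74 and 1.16 for Eng-Flk1+, -0.32, -0.17 and -0.20 for Eng+Flk1+ and lastly -0.50, -1.53 and -1.31 for Eng+Flk1-. The 3 Eng-Flk1+ arrays lay above the other 9, and the Eng+Flk1+ arrays came next, above all 6 arrays without Flk1. The difference from Eng-Flk1- was 1.85 ± 0.46, adjusted p = 0.077 and that from Eng+Flk1- was 1.79 ± 0.46, adjusted p = 0.282, so neither was called on this probe. The other 2 tested members of the class, Col17a1 and Col25a1, overlapped between Eng-Flk1+ and Eng+Flk1+ and had mean differences of -0.79 ± 0.77 and -0.81 ± 0.42 between Eng-Flk1+ and Eng-Flk1-.

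The sequence before the start of Col13a1 is shown as that of the gene with the lowest p among the collagens. RefSeq windows were at hand for 54 of the 75 genes. The stretch covers the part of the window upstream of the annotated gene, chr10:61979207-61979358 in GRCm38.p6, on the minus strand. Capitals mark a TATAAA, the only match in this stretch to the 5 motifs searched on both strands and spelled out after it.

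Col13a1: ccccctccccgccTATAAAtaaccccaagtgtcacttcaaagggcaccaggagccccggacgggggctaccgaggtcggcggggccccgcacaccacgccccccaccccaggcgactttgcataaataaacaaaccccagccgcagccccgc

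In windows of the 250 bases before a start, the TATA box TATAAA occurs on either strand in 12.4% of 32851 windows and in those of 5 of the 54 genes, Col10a1, Col11a2, Col13a1, Col17a1 and Col3a1. The GC box GGGCGG occurs in 32.7% of all windows and in those of 25 of the 54 genes. The motif CCAAT occurs in 33.8% of all windows and in those of 15 of the 54. The GATA-type motif AGATAA was in the windows of 3 of the 54 genes, against 9.99% of all. The ETS-type motif CGGAAGT was in those of 2, Col15a1 and Itgav, against 4.92% of all. These are matches of letters and were not set against any measure of binding.

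**Figure D2:**
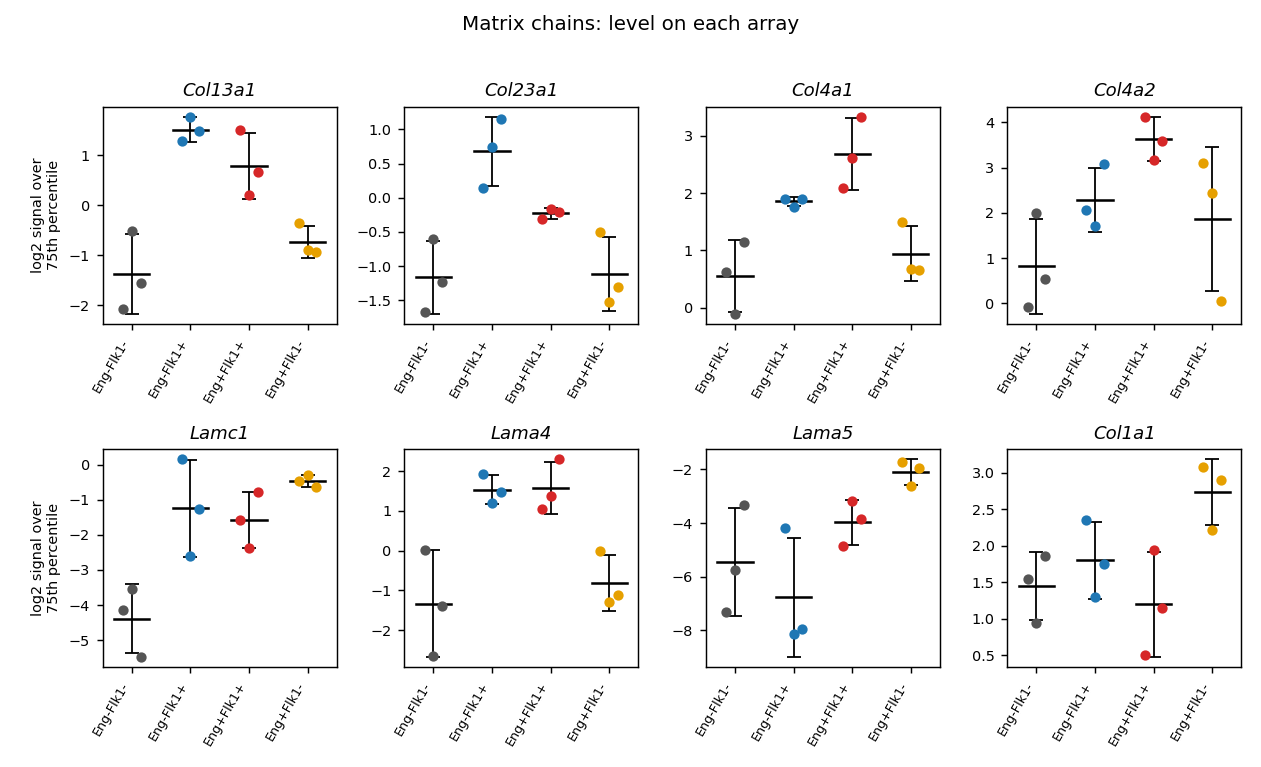
Level of 8 matrix chains on each of the 12 arrays (log2 signal minus the array's 75th percentile), with the mean and SD of each fraction (n = 3). Col13a1, Col4a1 and Lama4 lie higher on the 6 arrays with Flk1, while Lamc1 is lowest on the 3 Eng-Flk1- arrays.

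Fibrillar collagens form the fibres of connective tissue. None of the 11 tested was called in any comparison. Col1a1, the alpha-1 chain of type I collagen, had levels of 1.54, 0.94 and 1.86 for Eng-Flk1-, then 2.35, 1.29 and 1.75 for Eng-Flk1+, 0.50, 1.94 and 1.15 for Eng+Flk1+ and lastly 3.07, 2.21 and 2.90 for Eng+Flk1-, and the 3 Eng+Flk1- arrays lay above the 3 Eng+Flk1+ arrays and the 3 Eng-Flk1- arrays. The difference between Eng+Flk1+ and Eng+Flk1- was -1.53 ± 0.51, adjusted p = 0.47. Its partner Col1a2 showed no such order, with means of 0.02 ± 0.937 for Eng-Flk1-, then -0.53 ± 0.895 for Eng-Flk1+, -0.70 ± 0.277 for Eng+Flk1+ and lastly -0.17 ± 0.408 for Eng+Flk1-.

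Among the minor fibrillar chains, Col5a2 was brightest in Eng-Flk1+, with levels of -5.20, -4.83 and -4.53 for Eng-Flk1-, then -1.88, -1.25 and -1.50 for Eng-Flk1+, -3.22, -3.20 and -2.21 for Eng+Flk1+ and lastly -6.42, -1.56 and -5.75 for Eng+Flk1-, and the difference from Eng-Flk1- was 3.31 ± 1.02, adjusted p = 0.148. On the probe used Col5a3 had its lowest mean in Eng-Flk1- (-1.79 ± 0.487) and its highest in Eng+Flk1- (0.33 ± 0.0792), a difference of 2.13 ± 0.69, adjusted p = 0.187. Col2a1, the collagen of cartilage and notochord, varied widely within the fractions without Endoglin (2.43, -0.84 and 2.87 in Eng-Flk1- and 2.67, -1.54 and 1.73 in Eng-Flk1+), and its difference of -2.98 ± 1.21, adjusted p = 0.295 between Eng+Flk1- and Eng-Flk1- was the lowest of any member there. Col3a1 reached -1.48, -0.40 and 1.00 in Eng+Flk1+ against -1.34, -1.55 and -2.25 in Eng-Flk1-, with overlap.

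The remaining collagens include the fibril-associated, network, beaded-filament and endostatin-bearing types. Col18a1, whose C-terminal fragment is endostatin, had levels of 3.41, 3.37 and 4.40 in Eng+Flk1+ and 1.88, 1.52 and 2.09 in Eng+Flk1-, without overlap, and a difference of 1.90 ± 0.77, adjusted p = 0.682. Col9a3 was highest on the Eng-Flk1- arrays (2.07, 1.55 and 0.96) and lower on all 9 others, which ranged from -0.22 to 0.77. Its difference between Eng-Flk1+ and Eng-Flk1- was -1.38 ± 0.44, adjusted p = 0.161. Col8a1, Col6a1 and Col28a1 each had arrays that did not overlap in a comparison, with differences of -0.90 ± 0.40 (Eng-Flk1+ against Eng+Flk1-), 1.74 ± 0.75 (Eng+Flk1- against Eng-Flk1-) and -1.52 ± 0.67 (Eng+Flk1+ against Eng+Flk1-), adjusted p between 0.329 and 0.911. Col16a1, a fibril-associated collagen, spread over more than 3 log2 units within 3 of the 4 fractions. On the probe used its Eng+Flk1+ arrays had the lowest mean, with differences of -2.41 ± 1.21, adjusted p = 0.372 from Eng-Flk1- and -2.41 ± 1.21, adjusted p = 0.999 from Eng-Flk1+. The 13 collagens not named elsewhere (Col5a1, Col6a2, Col6a3, Col7a1, Col8a2, Col9a1, Col9a2, Col11a1, Col14a1, Col20a1, Col22a1, Col24a1 and Col27a1) had lowest adjusted p values from 0.383 (Col9a1) to 0.811 (Col20a1).

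Laminins gave the widest differences of the matrix chains. Lamc1 encodes the gamma-1 chain, part of most laminin trimers including laminin-111, the first to appear in the embryo. Its probe lies on chromosome 1 at 154981243-154981301 (mm8, minus strand), and its levels were -4.14, -3.55 and -5.48 for Eng-Flk1-, then 0.15, -2.61 and -1.26 for Eng-Flk1+, -1.57, -2.37 and -0.79 for Eng+Flk1+ and lastly -0.48, -0.30 and -0.64 for Eng+Flk1-. The 3 Eng-Flk1- arrays were the lowest of the 12, and the 3 Eng+Flk1- arrays lay close together. Against Eng-Flk1-, Lamc1 was higher in Eng+Flk1- by 3.92 ± 0.74, adjusted p = 0.0311, but with normexp background correction the difference was 1.92 and was not called (limma adjusted p = 0.145). Against the same 3 arrays the differences were 3.15 ± 0.74, adjusted p = 0.0652 for Eng-Flk1+ and 2.81 ± 0.74, adjusted p = 0.0892 for Eng+Flk1+, and the Lamc1 probe exceeded background clearly on 2 of the Eng-Flk1- arrays. The alpha-1 and beta-1 chains of that trimer were erratic in Eng-Flk1-. Lama1 had levels of -6.63, 1.14 and -7.18 for Eng-Flk1-, then 2.85, -1.57 and 2.99 for Eng-Flk1+, 1.61, -5.99 and -0.12 for Eng+Flk1+ and lastly 0.54, -3.06 and 0.77 for Eng+Flk1- and was well above background on 9 arrays, and its difference between Eng-Flk1+ and Eng-Flk1- was 5.65 ± 2.51, adjusted p = 0.276. The beta-1 chain, outside the gene rule, had means of -2.29 ± 4.98 in Eng-Flk1- and 1.02 to 2.00 in the other fractions, and passed no test.

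Lama4, the alpha-4 chain of vessel basement membranes, was higher on every array with Flk1. Its levels were 0.03, -2.65 and -1.38 for Eng-Flk1-, then 1.92, 1.20 and 1.49 for Eng-Flk1+, 1.04, 1.38 and 2.30 for Eng+Flk1+ and lastly -0.02, -1.30 and -1.12 for Eng+Flk1-. All 6 arrays with Flk1 lay above all 6 without, by at least 1 log2 unit between the closest arrays. The difference was 2.87 ± 0.68, adjusted p = 0.0664 between Eng-Flk1+ and Eng-Flk1-, 2.39 ± 0.68, adjusted p = 0.298 between Eng+Flk1+ and Eng+Flk1-, and 2.91 ± 0.68, adjusted p = 0.0562 between Eng+Flk1+ and Eng-Flk1-. With and without Endoglin the Flk1 positive fractions differed by 0.04 ± 0.68. The brightest probe therefore put Lama4 just short of the threshold in both comparisons with Eng-Flk1-, and a dimmer probe, well above background on 10 arrays, was called in both.

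Lama5, the alpha-5 chain that follows Lama1 in embryonic basement membranes, had another order. Its levels were -7.30, -5.74 and -3.32 for Eng-Flk1-, then -4.20, -8.14 and -7.97 for Eng-Flk1+, -4.87, -3.19 and -3.86 for Eng+Flk1+ and lastly -1.72, -2.63 and -1.95 for Eng+Flk1-, and the probe was well above background on 8 arrays. The Eng+Flk1- arrays were the 3 highest. The differences of -4.67 ± 1.17, adjusted p = 0.272 between Eng-Flk1+ and Eng+Flk1- and 3.35 ± 1.17, adjusted p = 0.222 between Eng+Flk1- and Eng-Flk1- were not called. Lama2, Lama3, Lamb2, Lamb3 and Lamc3 had adjusted p values above 0.3 in every comparison on the probes used, and Lamb3 was named for its low p in Eng+Flk1+ against Eng-Flk1+, where it differed by 0.99 ± 0.53, adjusted p = 0.999.

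Sums of cell type markers differed between fractions for some types and overlapped for others, and their link to the matrix differences was not tested. The summed level of 8 endothelial markers (signal relative to the array's 75th percentile, not log) was 23.6 to 42.3 on the Eng+Flk1+ arrays, 4.32 to 8.36 in Eng-Flk1+, 3.00 to 4.95 in Eng-Flk1- and 2.06 to 2.64 in Eng+Flk1-. The sum of 8 mesoderm markers was 8.65 to 16.2 in Eng-Flk1+, 4.77 to 10.4 in Eng+Flk1+ and 17.4 to 21.3 in Eng+Flk1-, but 1.44 to 3.85 in Eng-Flk1-, where Twist1 was well above background on no array. The sum of 8 visceral endoderm markers was 36.1 to 188 in Eng-Flk1- and 1.98 to 4.47 in the other fractions, with Afp well above background on no array of either fraction without Endoglin, and that of 8 epiblast and epithelium markers was 46.1 to 69.1 in Eng-Flk1-, 37.3 to 48.2 in Eng+Flk1- and 5.06 to 10.2 in the Flk1 positive fractions. Parietal endoderm, a known maker of laminin-111 and type IV collagen, had sums of 1.71 to 17.9 in Eng-Flk1- and 7.11 to 15.6 elsewhere over its 8 markers, of which Snai1 and Thbd were well above background on no Eng-Flk1- array. The sum of 8 trophoblast markers was 20.9 to 26.0 in Eng+Flk1- and 3.78 to 11.6 in the others. The 8 primitive erythroid markers summed to 24.2 to 42.7 in Eng-Flk1-, 8.35 to 19.3 in Eng+Flk1- and 1.76 to 4.66 in the Flk1 positive fractions. Such sums weigh the brightest markers most, and single markers did not all follow them. Between Eng-Flk1+ and Eng+Flk1-, 5 of 8 mesoderm markers were higher in Eng-Flk1+ and 3 lower (median log2 difference 0.17). Between Eng+Flk1- and Eng-Flk1-, 5 of 8 epiblast and epithelium markers were higher in Eng+Flk1- and 3 lower (-8.80 to 2.16). There 2 primitive erythroid markers were higher, by up to 3.61, and 6 lower. The part of cell makeup in the differences was not tested, and in these bulk samples fewer cells of a type and less RNA per cell cannot be told apart.

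Among the receptors, several alpha subunits bind RGD sites in fibronectin and vitronectin. Itgav, the alpha-v subunit, had levels of -4.41, -4.68 and -4.34 for Eng-Flk1-, then -0.92, -0.27 and 0.74 for Eng-Flk1+, -2.43, -2.09 and -5.04 for Eng+Flk1+ and lastly 1.77, -0.36 and -2.11 for Eng+Flk1-. The 3 Eng-Flk1- arrays lay below all 6 arrays of the single-marker fractions, and the Eng+Flk1+ arrays were split around them, with 1 of the 3 below every other array. The difference was 4.33 ± 1.00, adjusted p = 0.0607 for Eng-Flk1+ and 4.24 ± 1.00, adjusted p = 0.0733 for Eng+Flk1-, each against Eng-Flk1-, but -2.95 ± 1.00, adjusted p = 0.5 for Eng+Flk1+ against Eng+Flk1- and -3.04 ± 1.00, adjusted p = 0.755 for Eng+Flk1+ against Eng-Flk1+. Its interaction of -7.28 ± 1.42, adjusted p = 0.0748 had the lowest p of any member and was not called.

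Itgb5, a partner of alpha-v in the vitronectin receptor, likewise had lower means in Eng-Flk1- and in Eng+Flk1+ than in the single-marker fractions, at levels of -4.98, -5.12 and -4.98 for Eng-Flk1-, then -3.29, -2.56 and -3.24 for Eng-Flk1+, -4.49, -4.58 and -4.20 for Eng+Flk1+ and lastly -3.10, -1.41 and -4.01 for Eng+Flk1-. The Eng-Flk1- arrays lay close together and below all others, and the Eng+Flk1+ arrays lay below those of both single-marker fractions. The differences were 2.19 ± 0.59, adjusted p = 0.113 for Eng+Flk1- against Eng-Flk1-, 2.00 ± 0.59, adjusted p = 0.132 for Eng-Flk1+ against Eng-Flk1-, -1.59 ± 0.59, adjusted p = 0.598 for Eng+Flk1+ against Eng+Flk1- and -1.40 ± 0.59, adjusted p = 0.999 for Eng+Flk1+ against Eng-Flk1+, and the interaction was -3.59 ± 0.83, adjusted p = 0.133. Of the 8 mesoderm markers, 7 had a negative and 1 a positive interaction. The 2 called, beside 0.273% of all genes, were Foxf1 at -7.53 ± 1.06 (adjusted p = 0.0236) and Bmp4 at -6.12 ± 0.88 (adjusted p = 0.0244). The 8 trophoblast markers had the same split, 7 negative and 1 positive, and none was called. By contrast 7 of 8 endothelial markers and 6 of 7 visceral endoderm markers had a positive interaction, as did 54.3% of all genes. A link between any of these markers and the integrins was not tested. Lamc1 was the matrix chain with the lowest interaction p, at -4.25 ± 1.05, adjusted p = 0.157, followed by Col4a4 and by Col1a1 at -1.88 ± 0.72, adjusted p = 0.392. Col28a1 came next at -1.99 ± 0.94, adjusted p = 0.491, and among integrins Itga7 and Itga1 followed Itgb5, at 1.40 ± 0.59 and 0.94 ± 0.51. All of these interactions compare 4 fractions, and those of Itgav, Itgb5 and Lamc1 are negative because the difference with Flk1 was positive among Endoglin negative cells only, at the level of means.

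Itga5, the alpha-5 subunit of the main fibronectin receptor, had higher means in both fractions with Flk1. Its levels were -3.33, -2.98 and -2.25 for Eng-Flk1-, then 1.11, -1.11 and 0.37 for Eng-Flk1+, 2.20, -1.84 and 0.99 for Eng+Flk1+ and lastly -2.77, -3.29 and -1.64 for Eng+Flk1-. The means were 0.12 ± 1.13 and 0.45 ± 2.07 in the Flk1 positive fractions against -2.85 ± 0.554 and -2.57 ± 0.843 in the others, and a single low Eng+Flk1+ array overlapped Eng+Flk1-. The differences were 3.30 ± 0.97, adjusted p = 0.127 for Eng+Flk1+ against Eng-Flk1-, 3.02 ± 0.97, adjusted p = 0.428 for Eng+Flk1+ against Eng+Flk1-, 2.98 ± 0.97, adjusted p = 0.166 for Eng-Flk1+ against Eng-Flk1- and 2.69 ± 0.97, adjusted p = 0.66 for Eng-Flk1+ against Eng+Flk1-. Its partner Itgb1, the beta-1 subunit shared by most matrix receptors, had levels of -0.28, 0.12 and 3.03 for Eng-Flk1-, then 2.27, 1.53 and 2.10 for Eng-Flk1+, 2.61, 2.18 and 3.10 for Eng+Flk1+ and lastly 1.99, 2.13 and 1.38 for Eng+Flk1-. The 3 Eng-Flk1- arrays were spread over more than 3 log2 units, and no difference passed, the largest being 1.68 ± 0.76 for Eng+Flk1+ against Eng-Flk1-.

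Itga2b, the alpha-IIb subunit known from platelets and early blood progenitors, was highest in Eng+Flk1+. Its levels were 1.78, 0.77 and 0.16 for Eng-Flk1-, then 0.38, 1.17 and 1.39 for Eng-Flk1+, 2.04, 2.75 and 2.78 for Eng+Flk1+ and lastly 1.83, 1.25 and 0.86 for Eng+Flk1-, and the 3 Eng+Flk1+ arrays lay above the other 9. The difference was 1.54 ± 0.52, adjusted p = 0.783 from Eng-Flk1+, 1.21 ± 0.52, adjusted p = 0.741 from Eng+Flk1- and 1.62 ± 0.52, adjusted p = 0.168 from Eng-Flk1-. The sum of 8 megakaryocyte markers overlapped between all fractions, at 6.52 to 8.80 in Eng+Flk1+ and 4.68 to 13.5 in the others, with Pf4 well above background on no Eng+Flk1+ array and Ppbp on no array of the others. Itgb3, the partner of alpha-IIb and alpha-v, was bright on every array (6.57 to 7.95) on the probe used. Its second probe, also well above background on all 12 arrays, had means of -3.69 to -2.64.

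Of the collagen-binding alpha subunits, Itga2 and Itga10 had their lowest mean in Eng-Flk1-. Itga2 had levels of -6.01, -1.65 and -5.79 for Eng-Flk1-, then -1.44, 0.05 and -2.34 for Eng-Flk1+, -0.86, 1.00 and 1.48 for Eng+Flk1+ and lastly 0.57, -3.14 and -0.16 for Eng+Flk1-, with differences of 5.03 ± 1.32, adjusted p = 0.0875 for Eng+Flk1+ and 3.58 ± 1.32, adjusted p = 0.248 for Eng+Flk1-, each against Eng-Flk1-, and it was well above background on 10 arrays. Itga10 had means of -0.88 ± 0.713 for Eng-Flk1-, then 0.43 ± 1.69 for Eng-Flk1+, 1.24 ± 1.34 for Eng+Flk1+ and lastly 1.38 ± 0.402 for Eng+Flk1-, and its difference between Eng+Flk1- and Eng-Flk1- was 2.26 ± 0.88, adjusted p = 0.277. Itga1 was lowest in Eng-Flk1+, with levels of -1.23, -0.73 and -1.05 against -0.19, -0.21 and -0.04 in Eng-Flk1-, -0.20, -0.39 and -0.37 in Eng+Flk1+ and -0.40, -0.75 and -0.06 in Eng+Flk1-. Its difference of -0.60 ± 0.36, adjusted p = 1 from Eng+Flk1- was not called.

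Laminin-binding and other alpha subunits completed the receptor set. On the probe used Itga7 was bright throughout, from 3.87 to 5.94, with Eng-Flk1- above both single-marker fractions by -1.19 ± 0.42 and -1.10 ± 0.42 (Eng-Flk1+ and Eng+Flk1- minus Eng-Flk1-). Its second probe had means of -4.45 to -1.57. Itga3 and Itga6 overlapped between all fractions on the probes used. Itgae, the alpha-E subunit that pairs with beta-7 and binds E-cadherin, was lowest in Eng-Flk1+, with levels of 1.20, -1.70 and -0.63 for Eng-Flk1-, then -2.68, -1.93 and -2.59 for Eng-Flk1+, -1.75, -1.56 and -0.59 for Eng+Flk1+ and lastly -0.60, 0.39 and -0.37 for Eng+Flk1-. Its difference from Eng+Flk1- was -2.21 ± 0.69, adjusted p = 0.506 and that from Eng-Flk1- was -2.02 ± 0.69, adjusted p = 0.186. Itga9 had levels of -3.61, -2.53 and -1.72 in Eng-Flk1+ and -5.89, -6.12 and -7.28 in Eng+Flk1-, a difference of 3.81 ± 1.37, adjusted p = 0.653, with a signal well above background on 7 of 12 arrays. The beta-2 subunit Itgb2 and its alpha partners Itgal, Itgam and Itgax, which mark leukocytes, passed no test. Nor did the alpha subunits Itga4 and Itga8 or the beta subunits Itgb4, Itgb7 and Itgb8, whose lowest adjusted p over all comparisons ranged from 0.453 (Itga4) to 0.746 (Itga8). Of the names kept apart, Itgbl1 was brighter on the Eng-Flk1- arrays (-2.39, -2.99 and -2.09) than on those of Eng+Flk1- (-3.90, -4.35 and -5.08), a difference of -1.96 ± 0.67, adjusted p = 0.218. Itgb2l and Itgb4bp, for which the outlying value of 1 Eng+Flk1+ array was left out, had lowest adjusted p values of 0.352 and 0.614.

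**Figure D3:**
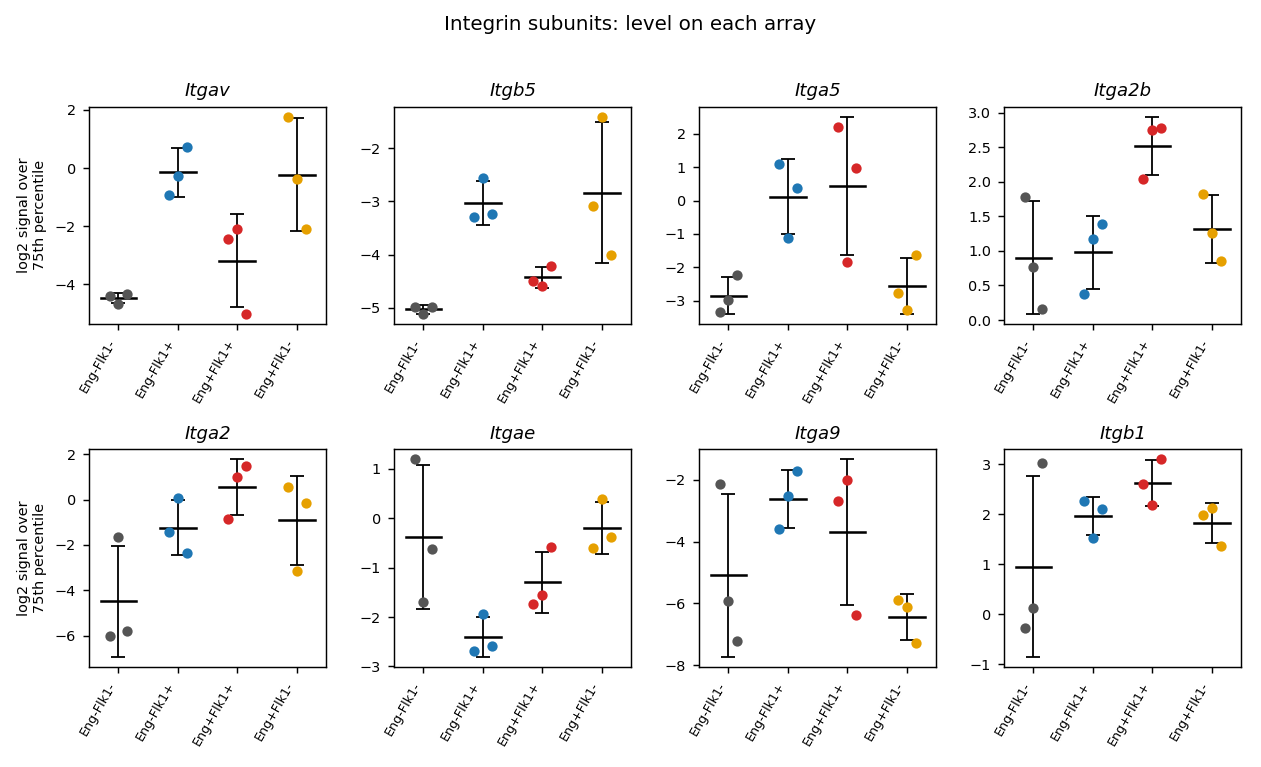
Level of 8 integrin subunits on each of the 12 arrays (log2 signal minus the array's 75th percentile), with the mean and SD of each fraction (n = 3). Itgav and Itgb5 have their lowest mean in Eng-Flk1- and lower means in Eng+Flk1+ than in the single-marker fractions, while Itga2b is highest on the 3 Eng+Flk1+ arrays.

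As classes, the matrix chains had medians near those of all genes, while the medians of the integrins lay further from them in some comparisons. The median difference of the 48 matrix chains was -0.22 between Eng-Flk1+ and Eng-Flk1- and 0.04 between Eng+Flk1+ and Eng+Flk1-, beside -0.13 and -0.01 over all genes tested. For the 23 integrins the medians were 0.08 and 0.07. Between Eng+Flk1+ and Eng-Flk1-, where all genes had a median of -0.06, they were -0.07 for matrix chains and 0.34 for integrins. Between Eng+Flk1- and Eng-Flk1- they were -0.18 and 0.01 (all genes -0.06), between Eng+Flk1+ and Eng-Flk1+ 0.10 and 0.30 (all genes 0.10), and between Eng-Flk1+ and Eng+Flk1- -0.14 and -0.31 (all genes -0.09). Single genes of a class thus differed in both directions. Of the 23 integrins, 17 were higher and 6 lower in Eng+Flk1+ than in Eng-Flk1+, beside 55.55% higher over all genes. Between Eng-Flk1+ and Eng+Flk1-, 6 were higher and 17 lower, beside 44.6% higher over all genes. In each other comparison 12 or 13 of the 23 were higher. These splits were not tested.

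Several genes carry more than 1 probe, and their probes did not always agree. Of the 75 genes 52 had several, and the brightest was used. The 4 probes of Lama4 all had higher means in both Flk1 positive fractions than in both others, and the called one differed from Eng-Flk1- by 5.65 ± 1.05 in Eng-Flk1+ (adjusted p = 0.0191 when every probe is tested on its own, as for the other probe values given here) and 5.30 ± 1.05 in Eng+Flk1+ (adjusted p = 0.0230). Of the other laminins, a dimmer probe of Lama1, well above background on 4 arrays, was called higher in Eng-Flk1+ than in Eng-Flk1-, by 4.68 ± 1.07 (adjusted p = 0.0472). A dimmer probe of Lamc3, well above background on all 12, was called there with a difference of -2.93 ± 0.67 (adjusted p = 0.0490), where the probe used gave -0.31. The 3 probes of Col23a1 all had their highest mean in Eng-Flk1+, and on a dimmer probe the difference from Eng-Flk1- was 5.92 ± 1.16 (adjusted p = 0.0242). Both probes of Col4a1 had their 2 highest means in the Flk1 positive fractions, though the dimmer was higher in Eng-Flk1+ (0.54) than in Eng+Flk1+ (-0.46). The second probe of Col13a1, the dimmer, was highest in Eng-Flk1+ (-2.33) but did not separate Eng+Flk1+ (-4.32) from Eng-Flk1- (-4.34). A dimmer probe of Col1a1 had means of 2.85 in Eng+Flk1- and -1.41 in Eng+Flk1+, a called difference of -4.26 ± 0.603 (adjusted p = 0.0191), in the direction of the brighter probe, and was also called between Eng+Flk1- and Eng-Flk1- (3.49 ± 0.603, adjusted p = 0.0169) and for the interaction (-6.35 ± 0.853, adjusted p = 0.0116). The remaining Col1a1 probe had means of 0.57 in Eng+Flk1- and -1.91 in Eng+Flk1+. Second probes of Col16a1, Col5a3 and Col3a1, each well above background on all 12 arrays, did not repeat the differences given above. For Col16a1, Eng+Flk1+ differed by -0.18 from Eng-Flk1- and by 0.28 from Eng-Flk1+. The value for Col5a3 was -0.21 between Eng+Flk1- and Eng-Flk1-, and that for Col3a1 was 0.05 between Eng+Flk1+ and Eng-Flk1-. A probe of Itga3, dimmer on average over the arrays but well above background on all 12, was called higher in all 3 other fractions than in Eng-Flk1-. It differed by 4.39 to 5.18, where the probe used gave 0.26 to 1.06. The limma adjusted p values were 0.0170 for Eng-Flk1+, 0.00962 for Eng+Flk1- and 0.00662 for Eng+Flk1+. For Itga7 the 2 probes ran in opposite directions against Eng-Flk1-, and 1 dimmer probe of Itgav was called, at 4.87 ± 0.943 between Eng+Flk1- and Eng-Flk1- (adjusted p = 0.0287). In Eng+Flk1+ that Itgav probe differed by -1.40 from Eng-Flk1+ and -3.21 from Eng+Flk1-, and another by -1.19 and -2.11. A further dimmer probe, well above background on 8 arrays, gave 2.60 and 1.06 there, and one on 7 arrays gave -0.29 and -0.67. The lower Itgav mean in Eng+Flk1+ was therefore not seen on every probe. Which probe of such a gene reads its main transcript was not tested.

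**Figure D4:**
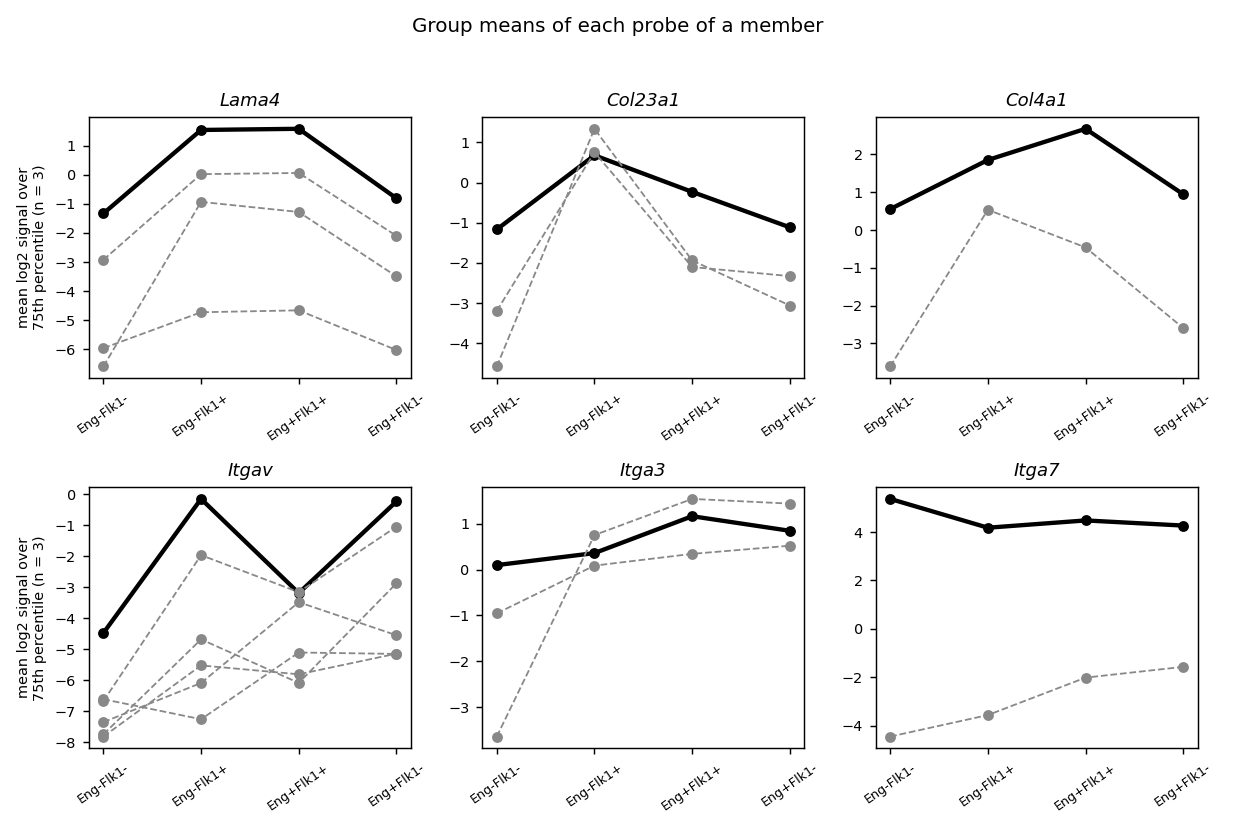
Mean level of every probe of 6 genes in the 4 fractions (log2 signal minus the array's 75th percentile, n = 3 arrays). The solid black line is the probe used, the brightest over all arrays, and the dashed grey lines are the other probes: those of Lama4 and Col23a1 run alike, those of Itga7 and Itgav do not.

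Other genes of the matrix and adhesion pathways were read from lists that were chosen with earlier results of these data known. Of 22 tested matrix glycoproteins and proteoglycans outside the collagen and laminin families, 2 were higher in Eng-Flk1+ than in Eng-Flk1-: Fbn1, the microfibril protein fibrillin-1, by 3.81 ± 0.73 (adjusted p = 0.0268) and Vcan, the proteoglycan versican, by 3.58 ± 0.75 (adjusted p = 0.0398). Fbn1 was also higher in Eng+Flk1+ than in Eng-Flk1-, by 4.22 ± 0.73 (adjusted p = 0.0149), and Fbln1, the elastic-fibre protein fibulin-1, was lower in Eng+Flk1- than in Eng-Flk1-, by -3.53 ± 0.57 (adjusted p = 0.0164). None of the 22 passed in the other comparisons or the interaction. Over all genes 1.91% passed between Eng-Flk1+ and Eng-Flk1-, 2.36% between Eng+Flk1+ and Eng-Flk1- and 1.46% between Eng+Flk1- and Eng-Flk1-.

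Of 25 genes of the integrin adhesion machinery, 2 passed. Itgb1bp1, which encodes a protein that binds the tail of the beta-1 subunit, was higher in all 3 other fractions than in Eng-Flk1-: by 3.90 ± 0.81 in Eng-Flk1+ (adjusted p = 0.038), 5.35 ± 0.81 in Eng+Flk1- (adjusted p = 0.0106) and 5.09 ± 0.81 in Eng+Flk1+ (adjusted p = 0.00966). Fermt3, the kindlin of blood and endothelial cells that activates integrins, was higher in Eng+Flk1+ than in Eng-Flk1- by 4.68 ± 0.89 (adjusted p = 0.0224). Of 15 other matrix receptors, Sdc4, the heparan sulfate proteoglycan syndecan-4, passed: it was lower in Eng+Flk1+ than in Eng+Flk1- by -4.46 ± 0.68 (adjusted p = 0.0278) and than in Eng-Flk1- by -3.65 ± 0.68 (adjusted p = 0.0212). No tested gene passed among 21 enzymes of collagen maturation or 21 matrix proteinases and inhibitors in any comparison. At an unadjusted limma p under 0.05, 3 of the enzymes and 5 of the proteinases and inhibitors passed between Eng-Flk1+ and Eng-Flk1-, beside 17.7% of all genes. Over all comparisons and the interaction those counts were 1 to 4 and 4 to 6 of 21, beside 4.78% to 17.7% of all genes. Over all 22720 genes 1.91% passed between Eng-Flk1+ and Eng-Flk1- and 2.36% between Eng+Flk1+ and Eng-Flk1-. The share was 1.46% between Eng+Flk1- and Eng-Flk1- and 0.295% between Eng+Flk1+ and Eng+Flk1-.

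None of the 3 calls was kept under every omission of an array. Col13a1 lost its call without any one of the 3 Eng-Flk1+ arrays, with limma adjusted p of 0.0636, 0.0647 and 0.0751 and differences of 2.76 to 3.01. Lamc1 lost it without Eng-Flk1- replicate 3 (0.0626), Eng-Flk1+ replicate 3 (0.0556) or any of the 3 Eng+Flk1- arrays (0.0952, 0.106 and 0.0970), with differences of 3.37 or more. Col4a1 kept it only without Eng-Flk1- replicate 3, and the other 11 omissions gave adjusted p of 0.0592 to 0.170 and differences of 1.79 to 2.42. With the slide as a block, none was called: Col13a1 gave 2.67 ± 0.80, adjusted p = 0.38, Lamc1 4.83 ± 1.46, adjusted p = 0.817 and Col4a1 1.87 ± 0.92, adjusted p = 0.981. On the slide that holds both Eng-Flk1- and 1 Eng-Flk1+ array, Col13a1 differed by 2.67 ± 1.05, adjusted p = 0.949, the lone array being assumed to vary like the others, while the fractions of the other 2 calls share no slide. Other settings ended calls too. Col13a1 lost its call with the authors' deposited table (limma adjusted p = 0.0588), the mean of all probes (0.153) and array weights (0.0583). Lamc1 lost it with normexp, quantile normalization (limma adjusted p = 0.0688), the authors' deposited table (0.0605) and array weights (0.123). Col4a1 lost it with the authors' deposited table (limma adjusted p = 0.15), only genes measured on all 12 arrays (0.0515), no filter (0.0662), the mean of all probes (0.138) and array weights (0.152). All 3 kept their direction in each of these fits.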

How the data were processed

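Cells of 1 pool of day 7.5 CD-1 embryos were sorted in triplicate into 4 fractions, and cDNA was amplified by PCR and hybridised to 12 one-colour Cy3 arrays, per the labels' protocols, which can compress or distort the levels of rare transcripts. The deposited values are spot intensity values from Agilent Feature Extraction 10.5.1.1, background subtracted by the authors' scanner software and with probe positions on mm8, per the file headers. The intensity flags for spots well above background, saturated or outlying are those that the authors deposited, per the file headers. The array number, not sequencing depth, limits the precision.

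From these intensity values, log2 processed signals were taken minus the 75th percentile of each array. Outlier spots were left out, spots of a probe were averaged, and the brightest probe of a gene was used. Genes whose probe exceeded background clearly (the scanner's flag) on the 3 arrays of 1 or more fractions were tested in limma 3.58.1 (R 4.3.3) with 1 model of 4 groups, empirical Bayes and Benjamini-Hochberg adjustment over all genes, and were called at an adjusted p under 0.05. The procedure was tested on simulated data. A 3 against 3 permutation test cannot go below 0.1 and was not used.

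Every member was counted, though not every member is reported here by name, and called members were named, and where fewer than 4 matrix chains or integrins passed in a comparison, those with the lowest p were named up to 4. The members and lists were chosen with earlier results of these data known. Further genes described for a class were chosen after their values were seen. Alternatives were normexp background correction, quantile normalization, the authors' deposited table, other filters, the mean of all probes, slide and replicate blocks, array weights and omission of arrays. Testing each probe on its own was added after seeing the data. The slides hold 4 arrays each: the first has the 3 Eng-Flk1- and 1 Eng-Flk1+ array, the second 2 Eng-Flk1+ and 2 Eng+Flk1+, and the third 1 Eng+Flk1+ and the 3 Eng+Flk1-. Sequences and gene positions are RefSeq's (GRCm38.p6).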

Additional observations from a re-analysis of the deposited data

How the results depend on the processing

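Each comparison's count of called members was small and moved with the processing. Between Eng-Flk1+ and Eng-Flk1- it was 1, but 3 with the mean of all probes, 0 with the slide as a block or with array weights, and 6 with each probe on its own. Of the 22720 genes tested, 435 were called there in the main fit and 543 with the mean of all probes. With the slide as a block 16 were called, and with array weights 162. Between Eng+Flk1- and Eng-Flk1- it was 1, but 0 with normexp, quantile normalization, the authors' deposited table, only genes measured on all 12 arrays, the slide block, the replicate block or array weights, 3 with the mean of all probes and 4 with each probe on its own. Over all genes 331 were called there in the main fit. The settings with 0 members called 146, 235, 234, 165, 0, 237 and 103 of all genes, in that order, and the mean of all probes 373. Between Eng+Flk1+ and Eng-Flk1- it was 1, but 0 with the authors' deposited table, only genes measured on all 12 arrays, no filter, either block or array weights, and 3 with the mean of all probes or with each probe on its own. Over all genes 537 were called there in the main fit, and 641 with the mean of all probes. The settings with 0 members called 379, 260, 433, 0 (slide block), 406 (replicate block) and 172 of all genes, in that order. The counts of 0 became 1 between Eng+Flk1+ and Eng+Flk1- and for the interaction with each probe on its own. Between Eng-Flk1+ and Eng+Flk1- the count of 0 became 1 with the mean of all probes and 4 with array weights. Over all genes the count there went from 23 to 36 and to 236 with these settings. Leaving out 1 array gave 0 to 4, 0 to 2 and 0 to 2 in the 3 comparisons with Eng-Flk1-, 0 to 1 between Eng-Flk1+ and Eng+Flk1-, and 0 in the rest. Over all genes these omissions gave 166 to 994, 143 to 845 and 258 to 1022 in the 3 comparisons with Eng-Flk1-. They gave 7 to 60 between Eng-Flk1+ and Eng+Flk1-, 26 to 107 between Eng+Flk1+ and Eng+Flk1-, 0 to 7 between Eng+Flk1+ and Eng-Flk1+ and 24 to 310 for the interaction. Fits that keep a count need not keep its genes, and why the counts moved was not tested, beyond the fewer genes or arrays that some settings use.

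There were 1213 values of named members under the alternatives listed with the methods, other than each probe on its own. Of these, 1148 kept direction and side of the threshold, 37 lost a call, 24 gained one and 4 reversed. Only the called values of Col13a1, Lamc1 and Col4a1 could lose a call, and all 37 losses were theirs. The rest of the 56 named values were uncalled in the main fit, so most of the 1148 were uncalled values that stayed uncalled. The reversals were Itga1 for the interaction (-0.18), Itga1 between Eng-Flk1+ and Eng+Flk1- (0.61) and Itga7 between Eng+Flk1- and Eng-Flk1- (0.89), each with the mean of all probes, and Col28a1 for the interaction with normexp (0.37). The authors' deposited table shifted the median of all genes by -0.604 to -0.564 against Eng-Flk1- and by 0.573 for the interaction. Same-numbered arrays did not pair: 1 of 18 correlations passed 0.1 (-0.107 to 0.188), and 5 of 12 arrays correlated best with their own number. With the replicate block the call of Lamc1 (adjusted p = 0.0598) and that of Col4a1 (adjusted p = 0.0832) were lost in limma.

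The main limits are 1 pool of embryos, 3 arrays a fraction, slides that largely follow the fractions, the noisier Eng-Flk1- arrays and probes of a gene that differ.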
